A study of Danio rerio with 2 samples.

Results

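Lone RARaa intervals were defined as chromatin immunoprecipitation (ChIP-seq) peaks of the retinoic acid receptor RARaa that had no other peak nearby in the zebrafish genome. An interval was counted as lone when the nearest interval on the same chromosome, on either side, was more than 250 kb away between midpoints. This rule used positions only and selected 764 of the 4547 distinct intervals on chromosomes 1 to 25 (16.8%), out of 4750 distinct intervals in the whole list. The other 3783 chromosomal intervals are called the remaining intervals. The 203 intervals on 122 unplaced sequences could not be judged, because the place of these sequences on the chromosomes is not given in the list.

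The list compared 1 RARaa-myc ChIP library with 1 input library. Both were made from zebrafish embryos labelled 10.5 hpf (hours post fertilization) that had been injected with mRNA for myc-tagged RARaa, given retinoic acid (RA) during 1 hour and fixed with 1.85% paraformaldehyde for 10 minutes. The ChIP library was pulled down with an antibody against the myc tag, and the input was an aliquot of chromatin taken before that step. By the methods of the study, RA was added at the labelled stage and embryos were grown for 1 more hour. The chromatin was thus taken 1 hour after the labelled stage. A large pool of embryos went into the immunoprecipitation. The receptor was thus supplied from outside and in RA-treated whole embryos, so that cell types were pooled and binding without RA was not measured here. As no replicate library existed, no value carries an error between batches of embryos and no test between samples was possible.

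Retinoic acid receptors bind DNA as heterodimers with retinoid X receptors, at response elements that mostly consist of direct repeats of a short motif. Such elements lie in promoters or in enhancers, and an enhancer can act on a gene over a long distance. Some known target genes, such as those of the hox clusters and of RA metabolism, carry several elements close together. The distance from a peak to its neighbours alone says nothing of whether it acts on a gene.

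Per the file headers, 39480982 of 48809259 ChIP tags and 51506879 of 54439579 input tags were kept, with at most 1 tag per position and strand. Each value below is read from the authors' peak calls. Pileup is the number of ChIP tags, extended to 200 bp, that cover the summit, so that 400 tags is the ceiling. Fold enrichment divides pileup by the local input background, after 1 tag is added to each, and that background cannot fall below the genome-wide level of 5.64 tags. The background is input scaled by 0.767 to the number of ChIP tags kept, so that it has a ceiling too. Intervals around medians, shares and their differences are 95% intervals that treat peaks as independent draws, which neighbouring peaks are not. Intervals around the pileup of a single peak are exact 95% Poisson intervals and cover counting error only. Those around the fold enrichment of a single peak set these pileup limits over a fixed background, so counting error of the input is left out.

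To determine whether isolation went with peak height, lone and remaining intervals were set side by side. The lone intervals were lower. Their median pileup was 26 tags (26 to 27), with quartiles of 21 and 36 tags and a range from 16 to 400 tags. The remaining intervals had a median of 33 tags (32 to 33), with quartiles of 24 and 50 tags, and all chromosomal intervals together had a median of 31 tags. The difference of the medians was −7 tags (−7 to −5.59). The distributions overlapped broadly. In 38.0% of all pairs of 1 lone and 1 remaining interval the lone one was higher, ties counted as equal parts.

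**Figure D1:**
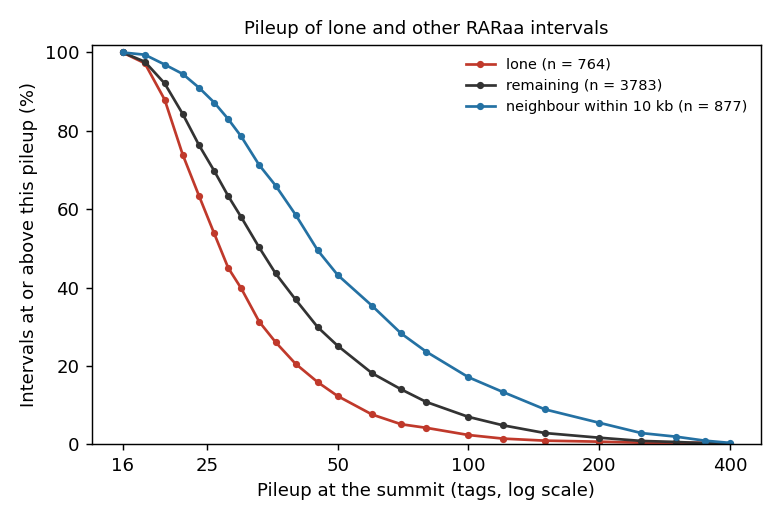
Percentage of intervals (y axis) at or above each pileup in tags (x axis, log scale) for lone intervals, remaining intervals and the part of the remaining intervals with a neighbour within 10 kb. At 50 tags the curves stand at 12.3% for lone, 25.1% for remaining and 43.2% for near neighbours, and all 3 curves start at the lowest pileup of 16 tags.

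High −log10 q and high fold enrichment were rarer among lone intervals. A pileup of 200 tags or more was also rarer, at 0.65% of lone and 1.67% of remaining intervals. At 350 tags or more the shares were 0.39% and 0.26%. The lone intervals in this last share are the 3 at or next to the ceiling described below, at 1.30-fold. A −log10 q above 5, called strong here, was reached by 383 of 764 lone intervals (50.1%, 46.6 to 53.7%), compared with 60.5% of all chromosomal intervals and 2367 of 3783 remaining intervals (62.6%, 61.0 to 64.1%). The difference between lone and remaining intervals was −12.4 percentage points (−16.3 to −8.58). A fold enrichment of at least 4 was found at 281 lone intervals (36.8%) against 44.5% of all chromosomal intervals. A fold enrichment of at least 10 was found at 21 lone intervals (2.75%, 1.80 to 4.17%) against 6.93% of all chromosomal intervals and 7.77% of the remaining ones. The median fold enrichment was 3.50 for lone (3.42 to 3.61) and 3.81 for remaining intervals (3.74 to 3.88), a difference of −0.31 (−0.41 to −0.18). The interval of this difference included 0 among peaks at the genome-wide background (−0.30, −0.51 to 0.12) and against intervals with the nearest over 100 to 250 kb away (−0.059, −0.17 to 0.090).

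Peak height was then followed over the distance to the nearest interval. The median pileup was 62.5 tags (50 to 77) where the nearest interval lay within 1 kb, 42 tags over 1 to 10 kb, 33 tags over 10 to 50 kb and 30 tags over 50 to 100 kb. It was 27 tags (26 to 28) in the 1043 intervals over 100 to 250 kb, again 27 tags (26 to 28) in the 528 lone intervals over 250 to 500 kb, and 25.5 tags (24 to 27) in the 236 lone intervals over 500 kb. The median pileup thus fell up to the class over 100 to 250 kb and changed little beyond it. Median fold enrichment departed from this course within 1 kb, at 3.21 (2.46 to 3.92), where the median background was 10.2 tags. From there it fell from 4.51 over 1 to 10 kb to 3.97 over 10 to 50 kb and 3.65 over 50 to 100 kb. It was 3.56 over 100 to 250 kb, 3.61 over 250 to 500 kb and 3.34 over 500 kb. Against the class over 100 to 250 kb, the difference of lone intervals in median pileup was −1 tag (−2 to 0.41). That in the strong share was −2.41 percentage points (−7.06 to 2.25). Both intervals include 0, which does not show that lone intervals and this class were alike in these measures. The share with at least 10-fold enrichment differed by −1.85 percentage points (−3.58 to −0.051), with a limit next to 0, and the share whose background was at the genome-wide level by 7.29 percentage points (3.31 to 11.3). This class was picked for comparison after the data were seen. Within the lone intervals the rank correlation between distance and pileup was −0.076 over 764 intervals of the same pair of libraries, compared with −0.32 over all 4547.

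**Figure D2:**
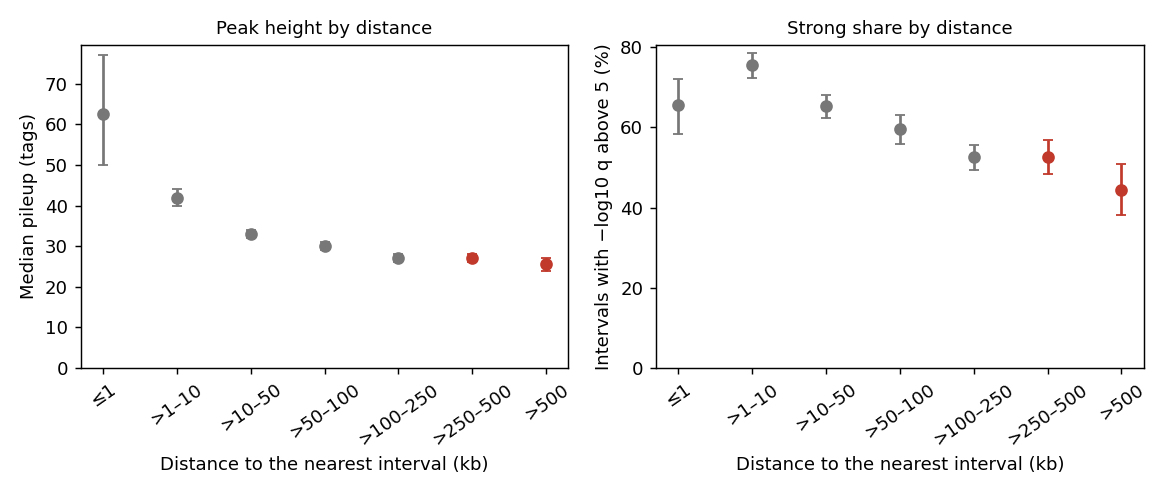
Median pileup in tags (left, with 95% intervals of the median) and percentage of intervals with −log10 q above 5 (right, with 95% Wilson intervals) in classes of distance to the nearest interval in kb, with lone intervals in red. Pileup falls from 62.5 to 27 tags over the grey classes and is 27 and 25.5 tags in the red ones, while the strong share peaks at 75.6% in the class over 1 to 10 kb and is 44.5% over 500 kb.

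Among lone intervals, the strong share was lower in the more isolated class. Of the 236 lone intervals with no neighbour within 500 kb, 105 were strong (44.5%, 38.3 to 50.9%), against 278 of the 528 others (52.7%, 48.4 to 56.9%). The difference was −8.16 percentage points (−15.7 to −0.49), and that in median pileup was −1.5 tags (−3.30 to 0.30). Over all chromosomal intervals the strong share was 60.5%. The limit of 10-fold enrichment was reached by 4 of the 236 and by 17 of the 528. It was reached by 48 of the 1043 intervals over 100 to 250 kb (4.60%) and by 315 of all 4547 (6.93%).

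Input background moved with isolation as well. Its median was 6.16 tags at lone intervals (6.13 to 6.29) and 6.90 tags at the remaining ones, and the background was at the genome-wide level for 27.6% of lone (24.6 to 30.9%) and 14.9% of remaining intervals (13.8 to 16.1%). Peaks at a lower background pass the q-value threshold at a lower pileup, so both groups were compared within classes of background. At the genome-wide level the median pileup was 23 tags for 211 lone (22 to 25) and 25 tags for 565 remaining intervals (23 to 26), the median fold enrichment was 3.61 and 3.92, and the strong share was 49.3% and 52.7%. Above that level and below 7 tags the medians were 24 (24 to 25) and 27 tags (26 to 28). Between 7 and 10 tags they were 32 (30 to 35) and 38 tags (36 to 39), with strong shares of 62.8% and 75.4%. From 10 tags to the limit of high background, both medians were 42 tags. At high background the 10 lone intervals had the higher median, 199.5 tags against 147 tags for the 118 remaining ones. The lone median was thus lower at each background up to 10 tags. The interval of the difference left out 0 in the 2 classes from above the genome-wide level to 10 tags. The differences there were −3 tags (−4 to −1.59) and −6 tags (−8.24 to −2.39). The interval included 0 at the genome-wide level (−2, −3.41 to 0.83), from 10 tags to high background (0, −7.28 to 3.61) and at high background (52.5, −82.8 to 256). Including 0 does not show that a difference was absent in these classes.

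Lone intervals were also shorter, with a median length of 239.5 bp (235 to 245) against 258 bp (255 to 262), a difference of −18.5 bp (−24.5 to −12.2). The minimum length of 200 bp was found at 11.9% of lone, 7.77% of remaining and 8.47% of all chromosomal intervals. With the nearest interval over 100 to 250 kb away it was 10.5%, and the difference of lone intervals from this class included 0 (1.36 percentage points, −1.55 to 4.39). Interval length follows pileup, with a rank correlation of 0.52 over the 764 lone intervals. Against the class with the nearest interval over 100 to 250 kb away, at 242 bp, the difference was −2.50 bp (−10 to 3.35), and among intervals at the genome-wide background it was −7 bp (−19.5 to 3.77), so that both include 0. Within classes of pileup, the medians of lone and remaining intervals differed by −5.50 bp at 16 to 19 tags, 4 bp at 20 to 24, 0.50 bp at 25 to 29, 0 bp at 30 to 39, −8 bp at 40 to 59 and −18 bp at 60 tags or more. In this last class the 58 lone intervals had a median of 349 bp (332 to 369) and the 686 remaining intervals 367 bp (359 to 372). More than 1 summit was listed for 7 lone intervals (0.92%, 0.44 to 1.88%), for 74 remaining ones (1.96%) and for 1.78% of all chromosomal intervals. The interval of the difference between lone and remaining intervals reached 0 (−1.04 percentage points, −1.72 to 0.0008). In the class over 100 to 250 kb the share was 0.58%.

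Of the 10 lone intervals with the highest pileup, 6 lay at high input background, defined as 28.2 tags or more, which is 5 times the level of the whole genome. The 3 highest were at or next to the ceiling. They were located on chromosome 20 from 6555573 to 6557046 with 400 tags, on chromosome 17 from 43027476 to 43028557 with 399 tags, and on chromosome 24 from 12341784 to 12342143 with 398 tags. Their fold enrichment was 1.30 each, and their input background was between 305 and 307 tags. The highest background of all chromosomal intervals was 306.6 tags, so the scaled input was at or next to its ceiling as well. With both signals at their ceilings, the value of 1.30 follows from the scaling and is not a measured enrichment. Next came an interval on chromosome 16 from 32685749 to 32686114 with 221 tags at 1.46-fold, one on chromosome 8 from 40254378 to 40254606 with 211 tags at 1.33-fold, and one on chromosome 14 from 3579911 to 3580115 with 188 tags at 1.42-fold. None of these 6 was strong, and ChIP and input signals were both high there. In all, 10 lone intervals (1.31%) and 118 remaining intervals (3.12%) lay at high input background. Only 1 of the 10 was strong, on chromosome 13 from 20631132 to 20631516, with 120 tags at 3.14-fold. Of the 118 remaining intervals at high input background, 59 (50%) were strong.

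The other 4 of the 10 stood on low background and had the highest pileup of the lone intervals outside high background. The highest was found on chromosome 16 from 7539987 to 7540372, with 156 tags (132 to 182) over a background of 5.69 tags and a fold enrichment of 23.5 (19.96 to 27.4). Its nearest neighbours were 753 kb and 361 kb away. On chromosome 10, the interval from 40610408 to 40610828 had 131 tags (110 to 155) and a fold enrichment of 19.9 (16.6 to 23.6), with no other interval within 811 kb. It combined the second highest fold enrichment of the lone intervals with a distance above that of most of them, as the median distance was 394 kb. The interval on chromosome 1 from 49902779 to 49903176 had 130 tags (109 to 154) at 14.9-fold, and that on chromosome 21 from 682914 to 683310 had 125 tags (104 to 149) at 18.98-fold. One more of the 5 lone intervals with the highest fold enrichment was located on chromosome 6 from 59376488 to 59376937, with 116 tags (95.9 to 139) at 17.6-fold. The counting intervals of neighbours in the order of pileup overlapped.

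**Figure D3:**
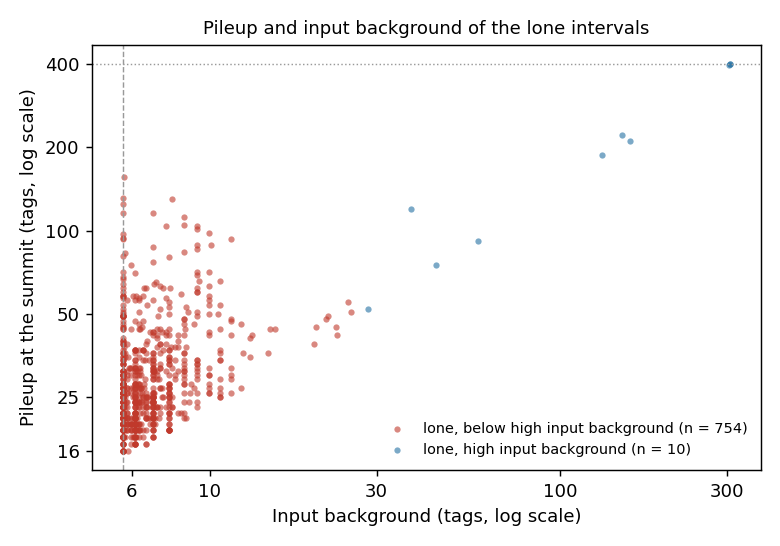
Pileup at the summit (y axis, tags, log scale) against input background (x axis, tags, log scale) of the 764 lone intervals, with the genome-wide background of 5.64 tags as a dashed line and the ceiling of 400 tags as a dotted line. Below high background (754 intervals, red) pileup reaches 156 tags, while the 10 intervals at high background (blue) rise along a diagonal to the ceiling.

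At the other end of the range, 8 lone intervals had the lowest pileup of 16 tags, for which the counting interval spans 9.15 to 25.98 tags. Among these 8, the one on chromosome 12 from 25800320 to 25800600 had the lowest −log10 q, 1.41, and a fold enrichment of 2.48. Intervals on chromosome 4 from 14417388 to 14417623, on chromosome 5 from 528839 to 529052 and from 11031271 to 11031490, and on chromosome 9 from 25620142 to 25620341 each had a −log10 q of 1.49 and a fold enrichment of 2.56. These peaks rest on few tags and lie just above the threshold of the list.

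The nearest distance of lone intervals reached 1561 kb, and 22 had no neighbour within 1 Mb. The most isolated interval was found on chromosome 10 from 35494911 to 35495246, with 1561 kb to the left and 1636 kb to the right, a pileup of 20 tags (12.2 to 30.9) and a fold enrichment of 2.42. It was followed by chromosome 9 from 50367745 to 50368004 at 1530 kb, with 32 tags (21.9 to 45.2) at 4.18-fold, and chromosome 22 from 9134623 to 9134929 at 1400 kb, with 26 tags (16.98 to 38.1) at 3.12-fold. The other 2 were on chromosome 19 from 5552901 to 5553159 at 1328 kb, with 32 tags at 4.76-fold, and on chromosome 5 from 63329598 to 63329879 at 1327 kb, with 20 tags at 2.88-fold. Thus the 5 most isolated peaks were all of low to medium height, and 2 of them, on chromosomes 9 and 19, were strong.

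The 3 intervals closest to the limit of 250 kb on each side had overlapping pileups, from 19 to 30 tags above it and from 17 to 23 tags below it. So few peaks do not describe the heights around the limit in general. Just above it were chromosome 9 from 47318027 to 47318347 at 250.6 kb with 30 tags, chromosome 17 from 42266389 to 42266595 at 250.6 kb with 19 tags, and chromosome 24 from 40537168 to 40537395 at 251 kb with 19 tags. Just below it were chromosome 23 from 13317290 to 13317498 at 249.995 kb with 17 tags, and chromosome 16 from 34411746 to 34412028 and chromosome 19 from 26064231 to 26064430, both at 249.8 to 249.9 kb with 23 tags.

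Gene names were taken from the annotation of the study, which is used here only for names. It pairs 29 lone intervals with the gene it assigned to them. These intervals were picked by the study because RA treatment changed the expression of that gene or for sequence conservation, and for a high score. All 29 being strong is thus a result of that choice, and no share is read from it. Their pileup ranged from 25 to 94 tags with a median of 38 tags, and none lay at high input background. By the same annotation, 13 lay within 9 kb of a gene start, 4 of them within 1 kb, 7 in introns, 1 in an exon and 8 in intergenic sequence. The annotation holds 352 intervals in all, and the features of those that are not lone were not counted here. No feature can thus be read as particular to lone intervals.

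Several of these lone intervals were assigned to genes for transcription factors. The interval assigned to etv5a, an ETS factor of the FGF pathway, was on chromosome 9 from 23601671 to 23602065 and had 58 tags (44.0 to 74.98) at 8.36-fold. It lay in an intron of another gene, listed under the symbol DGKG. The interval for uncx4.1, a homeobox gene expressed in somites, was intergenic on chromosome 1 from 8455318 to 8455622, with 60 tags (45.8 to 77.2) at 5.98-fold. Lower peaks were assigned to dacha, a dachshund family gene, in its own intron on chromosome 21 from 33557189 to 33557423 (37 tags at 5.72-fold), and to tfap2a, a regulator of neural crest, on chromosome 24 from 8440015 to 8440260 (34 tags at 4.65-fold). The interval for pou5f3, the zebrafish relative of the pluripotency factor Oct4, had 33 tags at 3.33-fold and lay on chromosome 21 from 11907526 to 11907832, in an intron of npdc1a. Those for pou4f1, a POU factor of sensory neurons, and sall3b, a spalt-like zinc finger gene, had 29 tags at 4.50-fold on chromosome 6 from 4479288 to 4479540 and 25 tags at 3.69-fold on chromosome 19 from 22551415 to 22551677. These 7 peaks spanned the range from just above the median of lone intervals, except for sall3b, which was below it, to more than 2 times that median. That median covers all lone intervals, strong or not, while these 7 were chosen for a high score. Their place against it is thus not read as a trait of these peaks.

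Other lone intervals were assigned to genes for proteins of the cell surface and a secreted ligand. The interval in an exon of ephb3a, an Eph receptor gene, on chromosome 2 from 7759646 to 7759954 had 62 tags (47.5 to 79.5) at 6.18-fold. An intron of fgfrl1a, a gene for a receptor-like protein that binds FGF, contained a peak of 46 tags (33.7 to 61.4) at 7.08-fold on chromosome 14 from 15374581 to 15374856. Within 1 kb of the start of plxnb1a, a plexin gene of semaphorin signalling, a peak of 38 tags at 5.82-fold was located on chromosome 23 from 10245064 to 10245333. The interval for wnt11r, which encodes a Wnt ligand, was intergenic on chromosome 10 from 33090287 to 33090544 with 30 tags at 4.67-fold. The interval for pcdh10b, a protocadherin gene, on chromosome 14 from 45447734 to 45447961 had 32 tags at 4.02-fold, and its nearest neighbour was 687 kb away.

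Among genes for transport and metabolism, SLC22A3, an organic cation transporter, was assigned an interval on chromosome 17 from 6118226 to 6118543 with 71 tags (55.5 to 89.6) at 6.57-fold, 644 kb from the nearest other peak. The interval for dio2, whose product activates thyroid hormone, had 62 tags (47.5 to 79.5) at 8.30-fold on chromosome 17 from 16756029 to 16756369 and lay in an intron of NRXN3. The gene slc15a1a, a peptide transporter, had 44 tags at 5.48-fold on chromosome 9 from 1011215 to 1011513. The highest pileup of the 29 intervals, 94 tags (75.96 to 115) at 14.3-fold, was assigned to polr3e, a subunit of RNA polymerase III, on chromosome 12 from 1220266 to 1220619. The most isolated of the 29 were the intervals for coro2a, a coronin gene, on chromosome 1 from 25562656 to 25562937 with 41 tags at 2.99-fold and 1018 kb to its nearest neighbour, and for tspan18b, a tetraspanin gene, on chromosome 18 from 27680775 to 27681002 with 34 tags at 4.43-fold and 989 kb. As the assignment took the closest gene start, it does not show which gene a lone interval acts on, and 3 of the 8 intervals within a gene body lay in a gene other than the assigned one.

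Lone intervals were found on each of the 25 chromosomes, with 14 to 43 per chromosome. The share of intervals that were lone was highest on chromosome 9, with 41 of 158 (25.9%, 95% Wilson interval 19.7 to 33.3%), and lowest on chromosome 11, with 14 of 189 (7.41%, 4.46 to 12.0%). The difference was 18.5 percentage points (10.8 to 26.5), between chromosomes chosen as the extremes of 25. Chromosome 9 was followed by chromosomes 16 (24.2%), 25 (23.2%), 17 (22.1%) and 14 (21.9%), whose intervals overlapped with its own. Chromosome 11 was preceded by chromosome 7 (10.2%, 7.27 to 14.2%) and by chromosome 4, with 33 of 271 (12.2%, 8.80 to 16.6%). Chromosome 4, whose long arm is rich in repeats, held 4.32% of the lone and 6.29% of the remaining intervals.

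**Figure D4:**
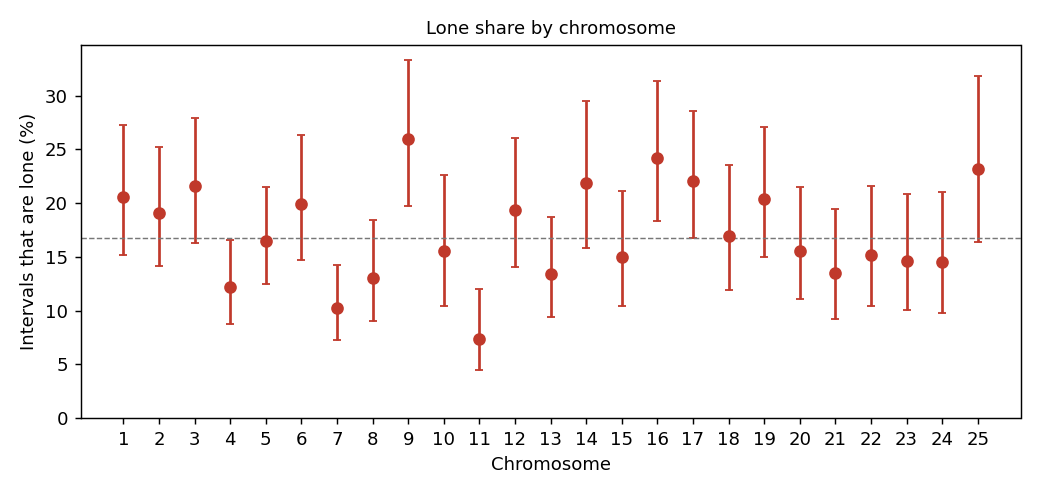
Percentage of intervals that are lone (y axis) on each chromosome (x axis), with 95% Wilson intervals, and the share over all chromosomes, 16.8%, as a dashed line. Chromosome 9 is highest at 25.9% and chromosome 11 lowest at 7.41%, and most of the other intervals include the dashed line.

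The lone share and the density of intervals both come from the positions that the rule used, so a negative relation between them is built in. Density ranged from 2.58 intervals per Mb on chromosome 14 to 4.41 on chromosome 4, and its rank correlation with the lone share was −0.84 over 25 chromosomes, all from the same pair of libraries. Per length covered, lone intervals were most frequent on chromosome 17, with 42 at 0.779 per Mb, and least frequent on chromosome 11, at 0.303 per Mb. The lower height of lone intervals was found on most chromosomes. The median pileup of lone intervals was below that of the remaining intervals on 23 of 25 chromosomes, equal on chromosome 6, and higher on chromosome 15, with 34 and 31 tags. The differences ranged from −13 tags on chromosome 3 to 3 tags, with a median of −5. The strong share of lone intervals was lower on 21 chromosomes and higher on chromosomes 1, 8, 15 and 25.

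The spacing was also read along the chromosomes. In 426 runs of consecutive lone intervals, 255 runs held a single interval and the other 509 lone intervals were in runs of 2 or more. The neighbour of a lone interval already has more than 250 kb on the facing side, and 1704 of all 4522 stretches between neighbouring intervals exceeded that length, so the runs only describe the spacing that the rule used. The longest runs held 8 lone intervals each. They were found on chromosome 2 from 3883252 to 10117970, a span of 6.23 Mb, on chromosome 20 from 49314925 to 53674533, a span of 4.36 Mb, and on chromosome 17 from 15284507 to 18953852, a span of 3.67 Mb. The run on chromosome 17 includes the interval assigned to dio2. The first or last interval of a chromosome, which has a neighbour on 1 side only, was lone in 13 cases.

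The stretches free of peaks between neighbouring intervals had a median length of 152 kb over 4522 stretches, with quartiles of 38.8 and 404 kb. A length above 1 Mb was found in 278 stretches, on all 25 chromosomes, which together covered 400.3 Mb or 29.7% of the span between the first and last intervals. Above 2 Mb there were 27 stretches on 18 chromosomes, and above 3 Mb there were 3. Of the 278 stretches above 1 Mb, 57 were bounded by lone intervals on both sides, 149 on 1 side and 72 on neither. Every long stretch already meets the condition for a lone interval on the side that faces it, so these counts depend only on the spacing on the far side.

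The longest stretch was located on chromosome 10 from 22879211 to 26231173, with 3.35 Mb between 2 lone intervals of 42 and 19 tags. A second stretch of 3.24 Mb followed on chromosome 3 from 50406885 to 53645543, between a lone interval of 23 tags and an interval of 44 tags that had a neighbour at 10.8 kb. Chromosome 6 contained a stretch of 3.08 Mb from 8152414 to 11234060, between lone intervals of 49 and 20 tags, and chromosome 20 one of 2.91 Mb from 6557047 to 9470276, between the lone interval at the ceiling of 400 tags and one of 27 tags. On chromosome 14, 2.83 Mb from 21970530 to 24796678 were free of peaks, between lone intervals of 23 and 18 tags. These 5 longest stretches thus began or ended mostly at peaks of ordinary height.

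Chromosome 1 held 2 of the 10 longest stretches. The first, of 2.62 Mb from 47282518 to 49902778, ended at the lone interval of 130 tags named above. The second, of 2.49 Mb from 8713035 to 11206868, lay beyond the right-hand neighbour of the interval assigned to uncx4.1, and its lone flanks had 37 and 26 tags. The other 3 were on chromosome 11 from 33496833 to 35982512 (2.49 Mb), on chromosome 12 from 19227811 to 21627291 (2.40 Mb) and on chromosome 7 from 12783297 to 15182568 (2.40 Mb). The stretch on chromosome 11 ended at an interval of 358 tags at 1.30-fold and an input background of 274 tags, which had a neighbour within 1 kb. Of the 20 intervals that bound the 10 longest stretches, 17 were lone, 9 were strong and 2 lay at high input background. Their median pileup was 31.5 tags. Over all chromosomal intervals, 16.8% were lone, 60.5% were strong and 2.82% lay at high input background. Each of the 20 already met the condition for a lone interval on the side facing its stretch. Their lone count is therefore raised by the rule and cannot be read against the 16.8%. On each chromosome the longest stretch measured between 1.59 Mb, on chromosome 23, and 3.35 Mb. The sequence before the first interval of a chromosome was at most 0.464 Mb long, on chromosome 7, and the sequence after the last one was not analysed here.

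**Figure D5:**
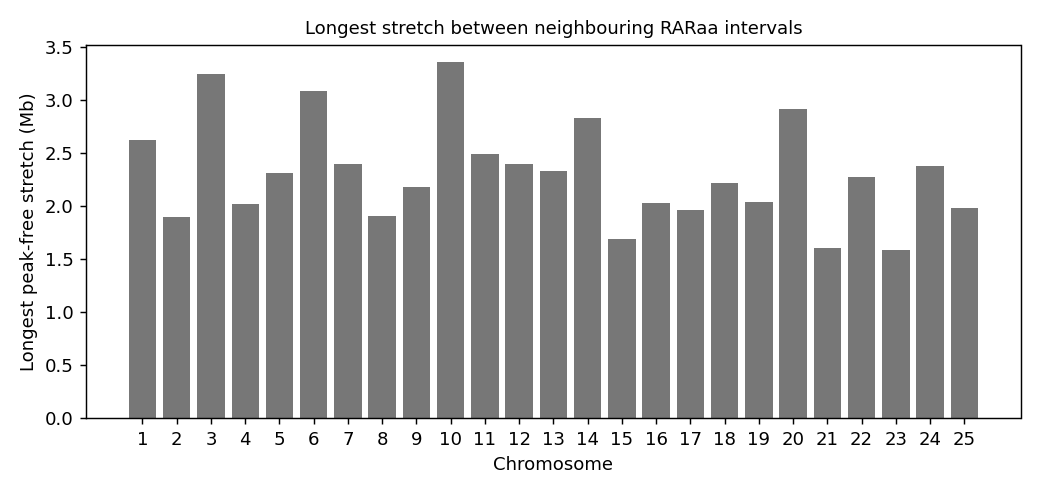
Longest stretch without a RARaa interval (y axis, Mb) between neighbouring intervals on each chromosome (x axis), with bars from 0. Chromosome 10 has the longest at 3.35 Mb and chromosome 23 the shortest at 1.59 Mb.

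Isolation depended on which peaks were counted as neighbours. Among the 2750 strong intervals alone, 734 (26.7%) had no strong neighbour within 250 kb. Of these, 383 were the strong lone intervals of the full list and 351 had only weaker peaks within that distance. In the strong list the longest stretch was 6.25 Mb, on chromosome 25 from 22758670 to 29011522, and it began at the lone interval of 53 tags (39.7 to 69.3) assigned to si:dkey-217l24.1. Without intervals at high input background, 770 intervals were lone, of which 754 were also lone in the full list, and the longest stretch was 3.98 Mb on chromosome 22 from 26679076 to 30654710. The difference in median pileup was −7 tags among strong intervals and −6 tags without intervals at high input background.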

How the data were processed

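RARaa-myc ChIP-seq and input libraries, 1 of each, were grouped by the antibody label. The authors aligned reads to Zv9 (bowtie2), and peak calling used MACS2 version 2.1.1.20160309 with a q-value limit of 0.05. The deposited values used are a signal (pileup), the −log10 q-value and the fold enrichment as a ratio. The 4858 deposited lines were reduced to distinct intervals, keeping the line of highest pileup, and input background was recovered as (pileup + 1) / fold enrichment − 1. Medians have intervals from binomial ranks, shares have Wilson intervals, and their differences combine both by Newcombe's rule. No p-value was computed. The functions were tested on simulated data with Python 3.11.15, numpy 2.4.6, pandas 2.3.3 and scipy 1.17.1.

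Regions named were the 10 lone intervals of highest pileup, the 5 of highest fold enrichment, the 5 most isolated, the 5 lowest, 3 on each side of 250 kb, the 10 longest stretches, the extreme chromosomes and chromosome 4. Intervals paired with genes in the study's annotation, the strong lone interval at high input background, the longest runs, other chromosomes and the longest stretches of the reduced lists were named after their values were seen. Of the 29 gene IDs, 26 were in the reference names, which gave the symbols of host genes. Members and lists were chosen with earlier results of these data known. Alternatives covered the distance, its measurement, the list of neighbours, chromosome ends, joined intervals, chromosome 4 and the summit used. Sequences and a Zv9 genome were not used here.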

Additional observations from a re-analysis of the deposited data

How the results depend on the processing

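Over 79 alternatives no difference between lone and other intervals changed its sign. The counts, the stretch lengths and the difference between extreme chromosomes, picked anew each time, cannot be negative and say nothing on sign. Classes of input background above the genome-wide level were not among the 79. There the difference in median pileup was −3 and −6 tags up to 10 tags of background. It was 0 tags from there to high background and 52.5 tags (−82.8 to 256) at high background. Of the 79 values, 60 stayed within the interval of the value reported, equalled it or, for counts, were within 1.5 times of it. With a limit of 500 kb the number of lone intervals was 236, the difference in median fold enrichment −0.44, that in the strong share −16.9 percentage points and that between the extreme chromosomes 9.81 percentage points. With strong intervals only, the fold enrichment differed by −0.47, the input background by −0.56 tags and the extreme chromosomes by 27.5 percentage points. The longest stretch was then 6.25 Mb and 446 stretches exceeded 1 Mb, as fewer intervals leave wider gaps. Without intervals at high input background it was 3.98 Mb. Within chromosomes the median difference in pileup was −5 tags. The following 2 comparisons were chosen after seeing the data. At the genome-wide input background the pileup differed by −2 tags (−3.41 to 0.83), the length by −7 bp and the strong share by −3.45 percentage points. Against intervals with the nearest at 100 to 250 kb, the differences were −1 tag, −2.50 bp, −0.059 in fold enrichment, −2.41 percentage points and −0.31 tags of background. Where no cause is given, the cause was not tested. Within strong intervals the strong share has no value. No paired analysis was possible because each kind of library was made 1 time, so that no replicate can be left out either. Peaks near 16 tags rest on few tags, and neighbours below the q-value threshold are not in the list. The position of intervals on unplaced sequences within the stretches free of peaks is unknown.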
